A study of Mus musculus with 6 samples.

Results

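The small leucine-rich proteoglycans are secreted proteins of connective tissue, and 8 genes of this family, Bgn, Dcn, Lum, Ogn, Fmod, Omd, Prelp and Aspn, were followed by symbol among the 25239 genes of the authors' deposited comparison. All 8 were found, and all 8 had a fold change. They were selected on the fold changes of this same comparison, together with their family, so fold changes and p-values of the members are given as a description. Polyadenylated RNA was sequenced from E15.5 cortex of C57BL/6J mouse embryos electroporated in utero at E13.5. The 6 libraries are 3 labelled MPPH, in which CRISPR editing put the Thr280Ala change into Ccnd2, the gene of the G1 cyclin D2, and 3 that received GFP alone. Both groups carry the genotype label wildtype, and no group edited without the variant is among the labels, so the variant and the editing procedure cannot be told apart. Electroporation reaches only part of the cells of a dissected region. The labels leave unstated which embryos a library came from, and p-values measure the spread between these libraries. Each side held libraries with 0 or 1 read of the Y-linked gene Ddx3y and libraries with 82 or more, so neither side is a single RNA sample repeated. The sources used here do not name the numerator of the fold change. A value above 0 is therefore called positive and a value below 0 negative. Libraries are likewise called positive or negative by which mean they enter, and which of these is the edited group is unknown.

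Small leucine-rich proteoglycans bind fibrillar collagen through a curved domain of leucine-rich repeats and regulate how collagen fibrils form and how wide they grow. Biglycan and decorin, from Bgn and Dcn, carry chondroitin or dermatan sulfate chains, while lumican, fibromodulin and osteoadherin, from Lum, Fmod and Omd, belong to a class that carries keratan sulfate. In and around the brain they are known from the fibroblasts of the meninges and of blood vessel walls. In bulk tissue, fewer cells of a type and less RNA per cell cannot be told apart.

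All 8 genes lay on the positive side, with folds from 1.17 for Aspn to 20.1 for Dcn. Their median log2 fold change was 2.89, against -0.0044 over the 18446 genes tested. Only Bgn, the gene with the highest level and a fold of 1.57, was called at an adjusted p under 0.05 in the authors' deposited table. That is 1 of 8 members, beside 0.136% of all genes tested in either direction and 0.0867% on the positive side. The members had 4 adjusted p-values under 0.1, those of Bgn, Prelp, Dcn and Fmod, beside 0.201% of all genes on that side, and 5 unadjusted p-values under 0.05, beside 2.77% on that side and 3.96% in either direction. By standard error the order was another: the interval of Bgn was the narrowest and that of Omd the widest of the 8.

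**Figure D1:**
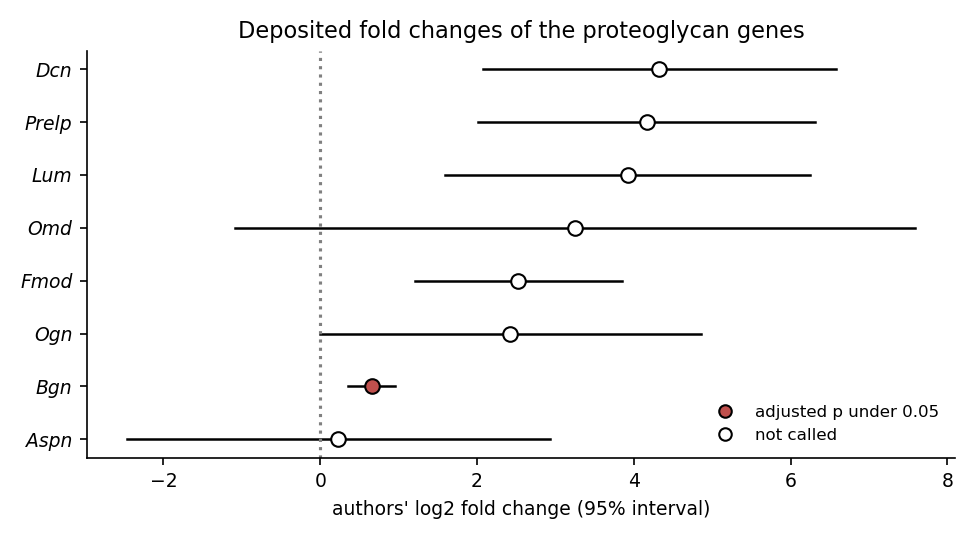
Log2 fold change of each gene in the authors' deposited table (x axis), with its 95% interval as a line, ordered by fold change. Bgn at 0.65 is the filled point, the only called member, and the intervals of Ogn, Omd and Aspn reach below 0.

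Reads per library are not listed in the deposited table, but they were recovered from it as whole numbers for all 8 members. Within the range searched, the mean, fold change and standard error of a gene fit exactly 1 set of 6 whole numbers, as described with the processing. Library numbers follow the size factor, the factor that scales a library for its depth, from high to low on each side, and carry no sample label. Positive libraries had size factors of 1.11, 1.02 and 0.904, and negative libraries 1.11, 1.04 and 0.850. Reads were divided by them to give normalised reads. The recovered reads of 12712 genes summed to between 1948306 and 2579241 per library, and total depth is unknown because more abundant genes were not recovered. Library 3 of the positive side stood apart from the other libraries of its side for the members, so the members' fold changes are also given without it.

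Bgn encodes biglycan, a proteoglycan of bone, skin, vessel walls and meninges that also signals through Toll-like receptors when released. Bgn lies on the plus strand of chromosome X, from 73483602 to 73495933 in mm10, with no other annotated gene overlapping it. Positive libraries 1 to 3 held 1286, 1101 and 708 reads of it, against 746, 643 and 539 in the negative libraries. After normalisation these were 1162, 1077 and 783 against 670, 617 and 634, so that every library of the positive side lay above every library of the negative side. The means were 1008 ± 199 and 641 ± 27.1 normalised reads (SD, n = 3 a side). The authors' deposited table gave a log2 fold change of 0.65 ± 0.15 (standard error) with an adjusted p of 0.024 by DESeq2. Without library 3 of the positive side, Bgn was 1.75 times as high there, and library 3 alone was 1.22 times the negative mean. As a log2 ratio of side means, Bgn stood at 0.54 without positive library 1 and at 0.81 without positive library 3. The sides overlapped for 6 members and were apart for 2, Bgn and Prelp, beside 6.21% of the 10672 genes with a recovered mean of 1 to 850.

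The promoters of the members varied in base composition, from 30.0% G and C for Aspn to 64.4% for Bgn. RefSeq promoters (GRCm38.p6) were at hand for 6 of the 8 genes, all but Dcn and Lum. Bgn is shown as the called member, Ogn as the member whose positive library 3 lay below all negative libraries with some reads left, and Prelp as the member that differed most between positive libraries 1 and 2. Each sequence is the 250 bases before the annotated start, read 5′ to 3′, from chrX:73483351-73483600 on the plus strand for Bgn, chr13:49607765-49608014 on the plus strand for Ogn and chr1:133921402-133921651 on the minus strand for Prelp. Capitals mark a match on either strand to TATAAA (the TATA box), GGGCGG (the GC box), CAGCTG (an E-box), TGANTCA (the AP-1 site), GGAATG (the TEAD site) or TGTTTAC (a forkhead site), and neighbouring matches can overlap.
Bgn: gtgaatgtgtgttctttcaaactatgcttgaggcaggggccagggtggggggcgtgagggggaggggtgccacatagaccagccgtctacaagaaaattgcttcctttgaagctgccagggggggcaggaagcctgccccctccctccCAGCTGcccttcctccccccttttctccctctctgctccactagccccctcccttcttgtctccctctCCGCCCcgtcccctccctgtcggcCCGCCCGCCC
Ogn: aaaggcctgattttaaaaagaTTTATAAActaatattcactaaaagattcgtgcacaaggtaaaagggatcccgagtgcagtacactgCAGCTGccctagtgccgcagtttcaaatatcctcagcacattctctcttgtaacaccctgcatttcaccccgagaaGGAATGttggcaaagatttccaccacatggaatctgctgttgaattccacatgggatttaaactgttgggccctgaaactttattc
Prelp: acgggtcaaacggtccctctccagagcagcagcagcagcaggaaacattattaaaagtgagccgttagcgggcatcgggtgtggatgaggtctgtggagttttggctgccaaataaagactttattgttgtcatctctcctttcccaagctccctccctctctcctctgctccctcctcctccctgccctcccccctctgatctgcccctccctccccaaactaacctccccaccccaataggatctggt
The Bgn window held 64.4% G and C, above 82.0% of the 27025 promoters of the same length. Those of Prelp, Fmod, Ogn, Omd and Aspn held 55.6%, 51.2%, 42.0%, 38.4% and 30.0%, where the median promoter held 52.0%. The windows of Omd and Aspn lay above 9.57% and 1.62% of those promoters. Bgn had 3 matches to the GC box, found in 32.9% of all promoters, 1 to CAGCTG, and none to TATAAA, found in 12.97%. Ogn had 2 overlapping matches to TATAAA, 1 to CAGCTG, found in 12.8%, and 1 to GGAATG, found in 12.6%, and Aspn had 2 to TATAAA. Prelp, Fmod and Omd had no match to any of the 6 motifs, and TGANTCA (6.87% of all promoters) and TGTTTAC (3.09%) were in none of the 6 windows. A match describes letters in the window and is not a measured binding site.

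Dcn encodes decorin, which wraps collagen fibrils, limits their width and binds TGF-beta. Dcn lies on chromosome 10 from 97479609 to 97518143 in mm10. Positive libraries held 368, 485 and 14 reads, against 12, 18 and 11 in the negative ones. Libraries 1 and 2 of the positive side thus held nearly all of its reads, and library 3 fell within the negative range of 10.8 to 17.3 normalised reads. The log2 fold change in the authors' deposited table was 4.33 ± 1.15 with an adjusted p of 0.076 by DESeq2. As log2 ratios of side means, Dcn stood at 3.67 without positive library 2 and at 4.88 without positive library 3. Against the negative mean of 13.7 normalised reads, libraries 1 and 2 were 24.3 and 34.7 times as high, and library 3 was 1.13 times as high.

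Lum, the gene of lumican, a keratan sulfate proteoglycan best known from the clear cornea, follows Dcn on the same strand after 47.0 kb with no protein-coding gene between them. Lum had 119, 170 and 6 reads in positive libraries, against 7, 3 and 8. As for Dcn, positive library 2 was highest, library 1 next, and library 3 lay within the negative range. The authors' deposited table gave 3.92 ± 1.19, with an adjusted p of 0.20 by DESeq2. Its log2 ratio of side means was 3.20 without positive library 2 and 4.47 without positive library 3. The next genes of the family on that chromosome were at or near 0, Kera listed with a mean of 0 and Epyc with 4 reads in all 6 libraries together.

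Fmod encodes fibromodulin, which binds collagen and its crosslinking enzyme lysyl oxidase. It had 130, 204 and 14 reads in positive libraries, against 15, 17 and 24. Libraries 1 and 2 were 6.07 and 10.3 times the negative mean, and library 3 was 0.80 times that mean, inside the negative range. The log2 fold change in the authors' deposited table was 2.53 ± 0.67 with an adjusted p of 0.076 by DESeq2. Without library 2 of the positive side the log2 ratio of side means was 1.78, below the deposited value by more than its standard error, and without library 3 it was 3.03.

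Prelp encodes a proteoglycan-like protein whose basic start binds heparin and heparan sulfate, and which is thought to anchor basement membranes to connective tissue. It lies on chromosome 1 on the strand opposite to Fmod, 115.8 kb away. Prelp was the member that differed most between libraries 1 and 2 of the positive side, with 96, 19 and 3 reads, against 1, 3 and 2 in the negative libraries. Library 1 was 4.67 times library 2 after normalisation, while for Dcn, Lum and Fmod it was 0.70, 0.65 and 0.59 times library 2. Library 3, at 3.32 normalised reads, lay just above the highest negative library at 2.88, with 3 reads in each. The authors' deposited table gave 4.17 ± 1.10 with an adjusted p of 0.072 by DESeq2. Without library 1 of the positive side the log2 ratio of side means was 2.42, and without library 3 it was 4.69. An annotated antisense gene, Gm15851, shares 350 bases of exon with Prelp and was not analysed here. Without a known strand setting, reads of the pair cannot be told apart.

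Ogn, Omd and Aspn lie side by side on chromosome 13 with gaps of 14.9 and 15.2 kb, all on the plus strand and all within the span of Cenpp, a centromere gene on the minus strand. Ogn encodes osteoglycin, also called mimecan, a small proteoglycan of bone and of many fibrous tissues. It had 182, 153 and 3 reads in positive libraries, against 21, 15 and 22. Libraries 1 and 2 were 8.34 and 7.59 times the negative mean, but library 3 was 0.17 times it and lay below all negative libraries. The log2 fold change was 2.43 ± 1.24 in the authors' deposited table and the DESeq2 p was 0.050 before and 1.00 after adjustment. The log2 ratio of side means was 1.96 without positive library 1 and 2.99 without positive library 3.

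Omd, the gene of osteoadherin, a bone proteoglycan that binds hydroxyapatite, had few reads, with 7, 4 and 0 in positive libraries against 1, 0 and 0. Its log2 fold change was 3.25 ± 2.21 in the authors' deposited table, with a 95% interval of -1.08 to 7.59. The DESeq2 p was 0.14 before adjustment. With 11 against 1 read the ratio of normalised reads was 10.9 with a 95% exact binomial interval of 1.58 to 469, which covers counting error only. The log2 ratio of side means of Omd was 2.71 without positive library 1 and 4.10 without positive library 3. Without negative library 1, which held the only negative read of Omd, no ratio could be formed. Aspn, the gene of asporin, a protein of cartilage and periodontal ligament that binds TGF-beta, had 4, 10 and 0 reads against 4, 1 and 6. The sides of Aspn overlapped, with positive library 2 the highest and positive library 3 the lowest. Its log2 fold change of 0.23 had a 95% interval of -2.47 to 2.93 in the authors' deposited table, and no difference was detectable at this depth. Its log2 ratio of side means was 0.79 without positive library 3, -1.10 without positive library 2, -0.25 without negative library 2 and 0.97 without negative library 3. Aspn was the only member for which libraries 1 and 2 of the positive side were not both above the negative side. Cenpp, whose exons share 0 bases with those of Ogn and Omd and 7 with those of Aspn, had 144, 87 and 74 reads against 124, 120 and 84. Its sides overlapped, and its log2 fold change was -0.13 ± 0.26 in the authors' deposited table.

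**Figure D2:**
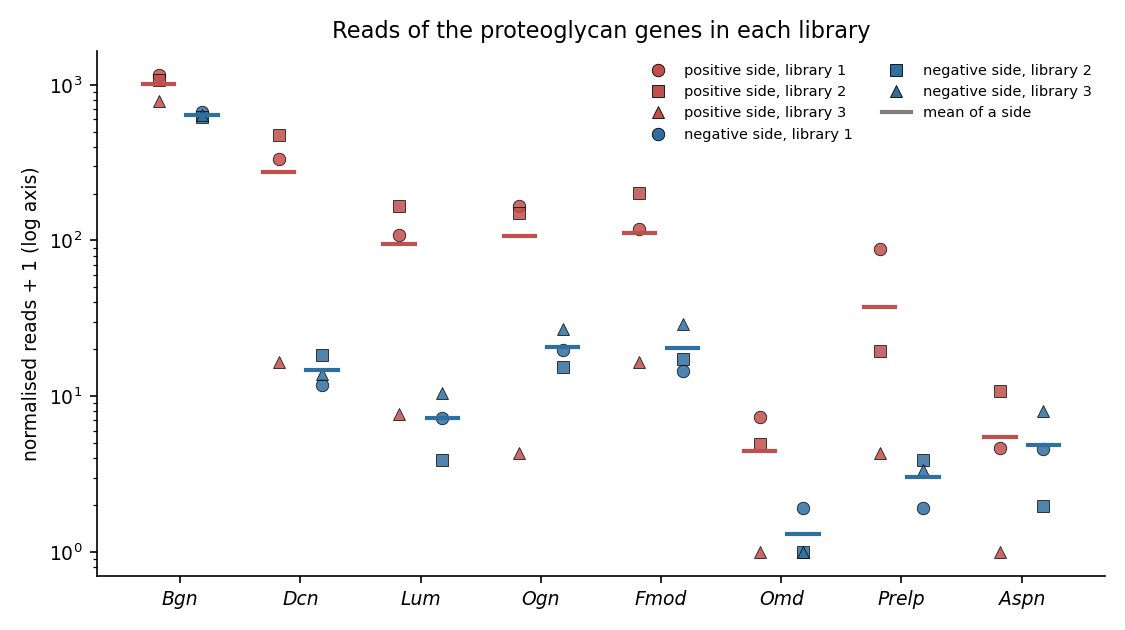
Normalised reads of each gene with 1 added, on a log axis, for the 3 libraries of each side, where bars mark the mean of a side. Libraries 1 and 2 of the positive side lie above the negative side for all genes but Aspn, while library 3 lies among or below the negative libraries for all but Bgn and Prelp.

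Across the members, positive library 3 held the fewest normalised reads among the positive libraries for 8 of 8 genes, beside 43% of the 10672 recovered genes. Libraries 1 and 2 were both above the whole negative side for 7 of 8 members, beside 18.7% of those genes. The mean of libraries 1 and 2 was at least 4 times library 3 for 7 of 8 members, beside 8.25% of those genes, with Bgn, at 1.43 times, the exception and with Omd and Aspn at 0 reads in library 3. Summed over the 7 members other than Bgn, normalised reads came to 819, 1023 and 44.2 in positive libraries, against 54.8, 54.7 and 85.9. The ratio of the sides was 9.65 with all libraries and 14.1 without library 3, while library 3 alone was 0.68 times the negative mean. With Bgn the sums were 1981, 2100 and 827 against 725, 672 and 720, a ratio of 2.32. Apart from Bgn, the members' difference between the sides thus rested on libraries 1 and 2, and the number of members whose sides were apart was 2 with library 3 and 7 without it. The members' median log2 ratio of side means was 3.01 with all libraries and 3.57 without library 3.

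Levels can be compared between genes per kilobase of annotated exon, taken over all transcripts of a gene. On the negative side Bgn stood at 105 normalised reads per kb, Ogn at 7.68, Fmod at 5.85, Lum at 2.53, Dcn at 2.34, Aspn at 1.64, Prelp at 0.57 and Omd at 0.13. In libraries 1 and 2 of the positive side the mean levels per kb were 184 for Bgn, 69.1 for Dcn, 61.2 for Ogn, 55.9 for Lum, 48.0 for Fmod, 14.6 for Prelp, 2.85 for Aspn and 2.28 for Omd. In both orders Bgn stood first in every library. On the negative side the ranges of Ogn and Fmod overlapped, as did those of Lum, Dcn and Aspn, those of Aspn and Prelp, and those of Prelp and Omd. In libraries 1 and 2 of the positive side the ranges of Dcn, Ogn, Lum and Fmod overlapped, all above those of Prelp, Aspn and Omd. Although its fold was among the smallest, Bgn had the largest difference of side means per kb, 60.2, followed by Dcn at 44.6, Lum at 35.7, Ogn at 33.6 and Fmod at 27.7. Bgn made up 45.4% and 38.8% of the members' summed level per kb in libraries 1 and 2 of the positive side, 91.3% in library 3, and 85.9%, 86.4% and 78.6% in the negative libraries.

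**Figure D3:**
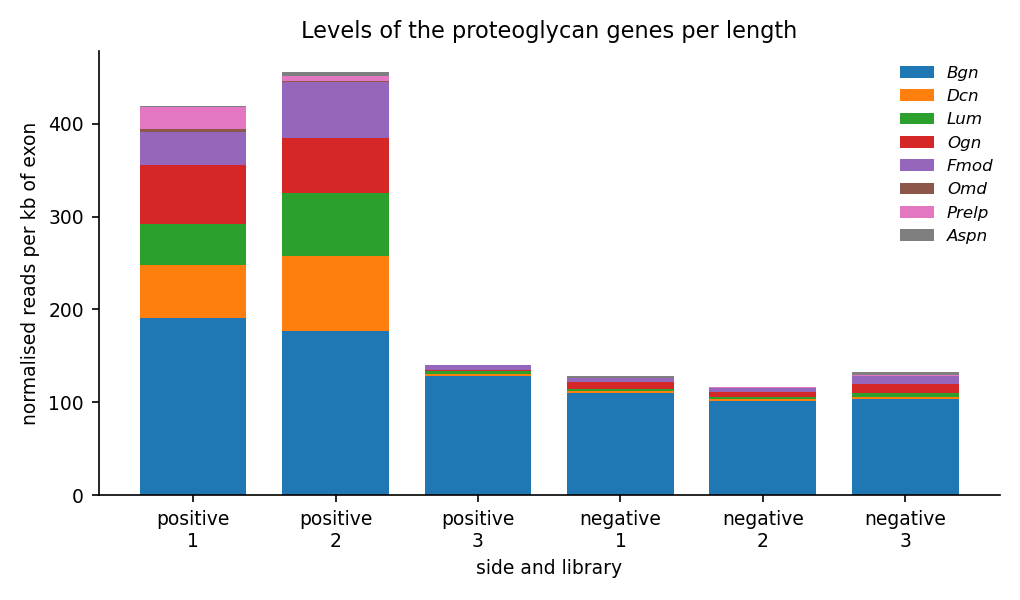
Normalised reads per kilobase of exon, stacked over the 8 genes, in each library. Bgn makes up 78.6% to 91.3% of the bar in positive library 3 and the negative libraries, and 45.4% and 38.8% in positive libraries 1 and 2.

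The proteoglycans' library pattern was set beside that of 161 genes from 16 other lists whose reads were recovered. Likeness was measured as the percentage of a gene's normalised reads that would have to move between the 6 libraries to give the shares of the summed members. Recovered genes outside these lists were not compared. The 5 nearest of the 161 were Col5a2 at 5.68%, Foxd1 at 6.01%, Pcolce at 6.06%, Twist1 at 6.19% and Dse at 6.23%. Close behind was C1qb, of the microglia and macrophage list, at 6.43%. Col5a2 encodes a collagen chain of fibril cores, Foxd1 and Twist1 encode transcription factors of mesenchyme, Pcolce encodes an enhancer of procollagen processing, and Dse encodes an enzyme of dermatan sulfate synthesis. Bgn holds most of the summed reads and weighs most in that order. No single member lay as near to the sum of all 8, with distances from 12.8% for Bgn to 47.4% for Prelp. Without Bgn the nearest were Col3a1 at 3.13%, Col1a2 at 4.43%, F13a1 at 5.38%, Mrc1 at 5.43% and Col1a1 at 7.09%, genes of fibrillar collagen and of tissue macrophages. Single members lay at distances from the sum without Bgn of 5.81% for Dcn and 6.57% for Lum, which are part of it, to 37.0% for Prelp and Aspn and 43.2% for Bgn.

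**Figure D4:**
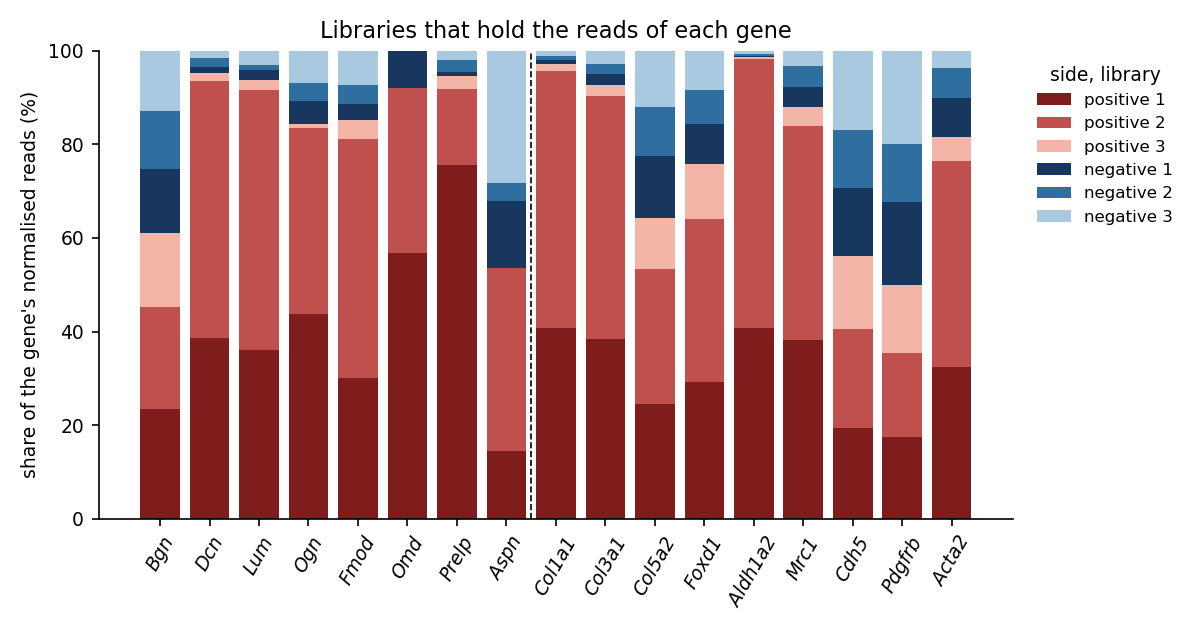
Share of a gene's normalised reads that lies in each library, in percent, for the 8 proteoglycan genes (left of the dashed line) and 9 genes of other lists. Libraries 1 and 2 of the positive side hold most of the reads of every gene shown except Bgn, Cdh5 and Pdgfrb, which are spread over all 6. On the pericyte and smooth muscle list Pdgfrb and Acta2 differ, as Acta2 has 32.4% and 44.1% of its reads in those libraries.

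The collagens and matrix proteins that these proteoglycans bind lay mostly on the positive side as well. Of 22 listed partners 20 had a positive fold change, beside 48.8% of all genes tested, with a median log2 of 0.51. Only Col1a1 was called, and 10 partners, all positive, had an unadjusted p under 0.05 in the authors' DESeq2 test. Over all genes tested that share was 2.77% on the positive side. Col1a1, which encodes a type I collagen chain, had 1761, 2192 and 57 reads in positive libraries against 38, 30 and 40, and the authors' deposited table gave 5.11 ± 1.16 on the log2 scale (DESeq2 adjusted p = 0.024). Col6a1, a chain of the microfibrillar type VI collagen that biglycan and decorin bind, had 308, 445 and 11 reads against 4, 8 and 13, and 4.78 ± 1.27 in the authors' deposited table. Col3a1 stood at 3.68 ± 1.03 and Col5a1 at 1.11 ± 0.30 in the authors' deposited table, neither called. The cartilage collagen gene Col2a1 stood at 0.07 ± 0.17 in that table, with overlapping sides.

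None of the genes that make the sugar chains was called. Of 22 genes of linker, chondroitin and dermatan sulfate synthesis 0 were called, 2 had an unadjusted p under 0.05 in the authors' DESeq2 test, and the median log2 was 0.07. Those 2 were Dse at 0.81 ± 0.35, with 170, 204 and 69 reads against 105, 85 and 58, and Ust, a sulfotransferase of the same chains, at 0.22 ± 0.11 in the authors' deposited table. Of 12 genes of keratan sulfate synthesis and tyrosine sulfation 0 were called and 1 had an unadjusted p under 0.05, Tpst1, which sulfates tyrosines of secreted proteins, at 0.26 ± 0.10. Among 25 core proteins of brain and cell-surface proteoglycans 0 were called. The median was -0.0073, and the 2 unadjusted p-values under 0.05 were those of the membrane-anchored Gpc3 at 1.21 ± 0.35 and the brain proteoglycan Bcan at 0.71 ± 0.25 in the authors' deposited table. The large brain proteoglycan Ncan, at a mean of 17153 normalised counts, stood at -0.02 ± 0.09 there.

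None of the other leucine-rich members of the family was called either. Of 10 listed genes 9 had a fold change, 4 positive and 5 negative, with a median log2 of -0.0057, 0 calls and 0 unadjusted p-values under 0.05 in the authors' DESeq2 test. Optc, the gene of opticin, lies 2.30 kb from Prelp on the same strand. It had 42, 26 and 21 reads against 16, 24 and 8, with 0.88 ± 0.53 in the authors' deposited table. After normalisation the sides of Optc were apart, positive library 3 at 23.2 and the highest negative library at 23.04. Ecm2, 11.7 kb from Aspn on the same strand, had 46, 42 and 36 reads against 45, 39 and 32, at 0.08 ± 0.34 in that table. Of 20 receptors and ligands known to bind these proteoglycans 0 were called and 4 had an unadjusted p under 0.05, led by Tgfbr3, the coreceptor betaglycan, at 2.58 ± 0.69 and Bmp4 at 3.12 ± 1.02 in the authors' deposited table. The Toll-like receptor genes Tlr2 and Tlr4 stood at 0.92 ± 0.49 and 0.88 ± 0.49 there, neither called.

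**Figure D5:**
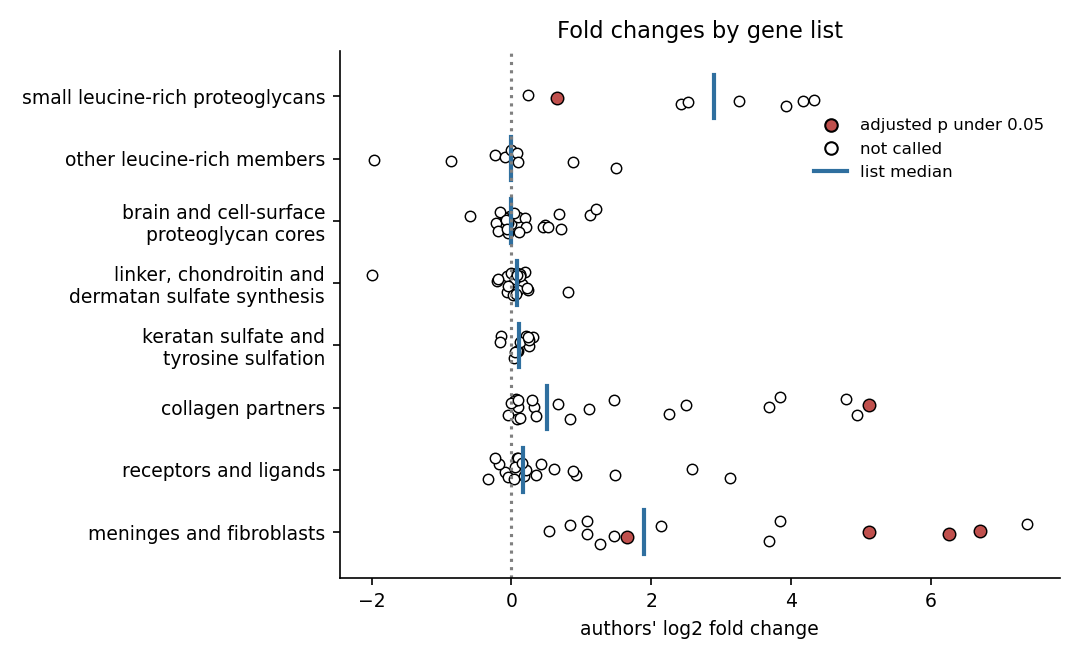
Log2 fold change in the authors' deposited table for every measured gene of the proteoglycans and 7 other lists, where lines are list medians and filled points are genes called at an adjusted p under 0.05. The medians are 2.89 for the proteoglycans, 1.89 for meninges and fibroblasts, 0.51 for collagen partners and between -0.0073 and 0.17 for the other lists.

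Markers of other tissues and cell types differed in how far they went with the members. Marker sums are of normalised reads over the listed genes whose reads were recovered, and Col1a1, Col1a2 and Col3a1 stand on both the collagen and the meninges list. All 14 markers of meninges and fibroblasts were positive, 4 were called (Cldn11, Col1a1, Aldh1a2 and Foxd1), 12 had an unadjusted p under 0.05 by DESeq2, and the median log2 was 1.89. They summed to 8454, 11267 and 1168 in positive libraries and to between 915 and 1415 in negative ones, so that the sum of positive library 3 lay within the negative range. Col1a1, Col1a2 and Col3a1 held most of the reads summed in positive libraries 1 and 2. For 5 of the 14 every positive library, library 3 included, lay above every negative one, beside 6.21% of the 10672 recovered genes. The reverse held for 0. Aldh1a2, the retinoic acid enzyme of the meninges, had 179, 233 and 2 reads against 1, 2 and 2. Microglia and macrophage markers were positive in 9 of 10, and their sums were 4136, 4685 and 1498 against 1326 to 2287. F13a1 was called, and 3 unadjusted p-values by DESeq2 were under 0.05. These belonged to F13a1 at 4.59 ± 1.05, Mrc1 at 2.87 ± 0.90 and Cd163 at 3.69 ± 1.51 on the log2 scale. The negative gene was the microglial P2ry12, at -0.10 ± 0.29. Endothelial sums were 3957, 4342 and 3390 against 2997 to 3798, with 0 of 10 called and 2 unadjusted p-values under 0.05 by DESeq2. Pericyte and smooth muscle sums were 1855, 1891 and 1485 against 1314 to 1962, with 0 of 10 called, and the pericyte genes Pdgfrb and Abcc9 held most of those reads. In that list 3 genes had an unadjusted p under 0.05 by DESeq2, Acta2 at 2.14 ± 0.76, Tagln at 1.15 ± 0.52 and Anpep at 0.84 ± 0.42 in the authors' deposited table. The smooth muscle actin gene Acta2 had 47, 59 and 6 reads against 12, 9 and 4, so that positive library 3 lay within the negative range. Cartilage and bone sums were 961, 1093 and 889 against 805 to 1055 with 0 calls, Bglap at 0 and Matn1 at a single read. Col2a1 held most of those reads. An unadjusted p under 0.05 by DESeq2 was found for 1 positive gene, Col9a2 at 0.61 ± 0.29, and 1 negative gene, Ibsp at -2.61 ± 1.17. Ibsp had few reads, 0, 3 and 2 against 17, 4 and 10. Skin epithelium sums were 371, 397 and 399 against 430 to 468, with Krt5 and Krt14 at a single read each. Skeletal muscle sums were 82.2, 83.2 and 56.4 against 53.9, 39.4 and 60.02, with Pax7 at 0. Choroid plexus sums were 74.1, 72.4 and 11.1 against 18.2 to 31.8, of which the water channel gene Aqp1 made up 54.2, 49.9 and 7.74 in positive libraries. That list had 4 positive and 4 negative genes, a median log2 of -0.05 and 0 calls, and its defining marker Ttr had 0, 3 and 1 reads against 1, 0 and 14. Its only gene with an unadjusted p under 0.05 by DESeq2 in the authors' deposited table was Aqp1 (log2 2.21 ± 0.80). The cortical markers Tbr1 and Neurod6 were abundant, with means of 14240 and 20121 normalised counts, and none of 12 cortical genes was called. Unadjusted p-values under 0.05 by DESeq2 belonged to 2 positive cortical genes, Eomes (0.34 ± 0.16) and Neurog2 (0.35 ± 0.16), and 1 negative, Sox2 (-0.33 ± 0.10). All 14 ventral forebrain genes were negative, and 2 were called, Dlx5 at -1.40 ± 0.28 and Dlx6 at -2.38 ± 0.53. In that list 12 had an unadjusted p under 0.05 by DESeq2, beside 3.96% of all genes in either direction. The part of meningeal or any other of these cells in the proteoglycan values was not tested.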

How the data were processed

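Polyadenylated RNA of 6 libraries, 3 with the Ccnd2 edit and 3 with GFP only, was compared by the authors. Per the submitters' processing notes, cutadapt, featureCounts, DESeq2 and the build mm10 were used. Aligner, annotation, tool versions and strand setting: not given in the sources used here. The single deposited table has 0 columns per sample. Its columns, per the file headers, are the base mean (a signal averaging counts over size factors), a log2 fold change and its standard error, a Wald score (their quotient), and a p-value with an adjusted one. The values come from the authors' DESeq2 run. A recalculated Benjamini-Hochberg adjustment matched that of the authors within 3.3e-15. A gene was called at an adjusted p under 0.05, and no model was refitted for testing.

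Whole reads were recovered as follows. The 739 genes with the lowest deposited means fall on 6 levels, what a lone read adds in each library, and fold change signs place 3 of these levels per side. For every gene with a mean up to 850, and list genes up to 1150, sets of 6 whole numbers giving the deposited mean within its rounding were enumerated. For all but the lowest means, only sets whose ratio of sides lay near the deposited fold change were taken. Each was fitted with a negative binomial model (ridge 1e-06, minimum mean 0.5), the dispersion giving the deposited standard error was solved for, and the set was kept when its fold change matched within 1e-10 on the log2 scale. The range of ratios was widened only until a set matched, so sets outside it were not checked. Within the range searched, exactly 1 set was found for 12712 of 12742 genes, 0 had several, and the largest difference was 1.2e-14. The search was first tested on simulated data. Total depth stays unknown. Computation used Python 3.11.15, numpy 2.4.6, pandas 2.3.3, scipy 1.17.1 and numba 0.67.0. Positions are from GENCODE (mm10) and promoters from RefSeq (GRCm38.p6).

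The members and gene lists, whose sums and counts are given in the report, were chosen with earlier results of these data known. The rule for named genes was all members, up to 4 genes per other list with called genes and the smallest p first, defining markers of a cell type where a result touches it, and the 5 genes nearest in library pattern. Cdh5, Pdgfrb, Abcc9, Ttr, Bglap, Matn1, Krt5, Krt14, Pax7, Tbr1 and Neurod6 are such markers. Col2a1, Ncan, Ecm2, Tlr2, Tlr4, Kera, Epyc, Cenpp, P2ry12, C1qb, Ddx3y, Xist and the nearest genes without Bgn were named outside the rule, after their values were seen.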

Additional observations from a re-analysis of the deposited data

How the results depend on the processing

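The number of members called was 1 at an adjusted p of 0.05, 4 at 0.1 and 0 at 0.01, and stayed 1 when the adjustment was limited to means of 10 or 50 and above. Of the other listed genes 7 were called, 11 at a threshold of 0.1, 7 with the adjustment limited to means of 10 and above, and 3 without the meninges and collagen partner lists. The summed reads, 2.32 times as high on the positive side, ran from 1.99 to 2.89 when each library was left out in turn, and were 2.40 without size factors, 5.16 as a geometric mean of the members' ratios and 9.65 without Bgn. The count of members whose sides were apart, 2, ran from 2 to 7 over the same omissions, with 7 without library 3 of the positive side. The sum without Bgn, these omissions for the count, the lists without meninges and collagen partners, and the median over recovered reads were chosen after seeing the data. The median log2 fold change of 2.89 was 3.01 from recovered reads, 2.45 to 3.57 with each library left out, 3.23 over the 6 members whose mean reached 10, and 2.90 relative to the median of genes whose mean reached 50. Omd without negative library 1, which held its only negative read, gave no ratio and was not counted. Over 55 alternatives for single members 53 stayed within a standard error of the deposited value. The 2 that moved further were Fmod at 1.78 without positive library 2 and Prelp at 2.42 without positive library 1. Among the 53 were 2 below 0, both of Aspn, which ran from -1.10 to 0.97 with a standard error of 1.38. No paired analysis was possible because the deposited columns carry no replicate numbers. Few reads limit Omd and Aspn, with 12 and 25 in all.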

Other observations

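Bgn is X-linked, and the libraries differed in sex-linked reads. The Y-linked Ddx3y had 175, 1 and 165 reads in positive libraries against 0, 423 and 82, and Xist had 705, 1228 and 752 against 1936, 524 and 914. The negative libraries with the most and the fewest Xist reads, 1 and 2, differed by 1.09 times in normalised Bgn reads. On the positive side the libraries with the most and the fewest, 2 and 1, differed by 1.08 times. Positive library 3, with Xist reads between theirs, had the lowest Bgn of that side, and the highest was 1.48 times as high. These genes were chosen after their values were seen, and their part in the Bgn values was not tested.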
